A study of Mus musculus with 60 samples.

Results

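The genes for the opioid and cannabinoid receptors were examined in the chromatin of mouse dorsal root ganglia: Oprm1, Oprd1, Oprk1, Oprl1, Cnr1 and Cnr2, 6 of 21887 protein-coding genes. They were chosen by name as a receptor list, and the peaks of a gene were those that touched its body or the 10 kb on either side (its window) in the GRCm38 RefSeq annotation. The ganglia, L4 to L6, whose neurons send axons into the sciatic nerve, came from C57BL/6 mice of 6 to 8 weeks, 24 hours after 1 of 4 operations. SNA was cutting of the sciatic nerve and Sham its control operation. DCA was cutting of the ascending axons in the dorsal columns of the cord, and Lam, laminectomy alone, was its control. Chromatin immunoprecipitation (ChIP-seq) was done for the histone marks H3K9ac, H3K27ac and H3K27me3 with 2 samples and 2 inputs per mark and operation, each from the ganglia of 10 mice. ATAC-seq, which finds DNA that a transposase can enter, had 3 samples per operation, each from 1 mouse. The authors pooled all replicates of a condition before they called peaks, so each assay and operation is 1 list, 16 in all, and no value below carries a replicate error or a p-value between operations.

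Opioid and cannabinoid receptors are seven-helix membrane proteins that act through inhibitory G proteins of the Gi/o class. In sensory neurons they lower cyclic AMP, open inward rectifier potassium channels, close calcium channels and so reduce transmitter release, which is the basis of their use against pain. Oprm1 (the mu receptor) is the main target of morphine, Oprd1 (delta) and Oprk1 (kappa) bind enkephalins and dynorphins best, and Oprl1 binds nociceptin. Cnr1 is the cannabinoid receptor of neurons, and Cnr2 is found mainly in immune cells. H3K9ac and H3K27ac lie at active promoters and enhancers, and H3K27me3 lies in chromatin repressed by Polycomb complexes.

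The promoters of these genes differ in a feature that goes with open chromatin over the genome, the number of CpG dinucleotides. The 250 bases before an annotated start are shown for 1 start of each gene with a RefSeq promoter entry (GRCm38.p6, 5′ to 3′ on the gene's strand), with every CpG in capitals. For Oprm1, Oprl1 and Cnr1 the start shown is one under or next to the ATAC peak described below, Oprd1 has 1 annotated start, and Cnr2 is shown at its first. The stretches are, in the order printed, chr4:33924014-33924263 (plus strand), chr4:132144487-132144736 (minus), chr10:6788320-6788569 (plus), chr2:181715098-181715347 (plus) and chr4:135894939-135895188 (plus).
Cnr1: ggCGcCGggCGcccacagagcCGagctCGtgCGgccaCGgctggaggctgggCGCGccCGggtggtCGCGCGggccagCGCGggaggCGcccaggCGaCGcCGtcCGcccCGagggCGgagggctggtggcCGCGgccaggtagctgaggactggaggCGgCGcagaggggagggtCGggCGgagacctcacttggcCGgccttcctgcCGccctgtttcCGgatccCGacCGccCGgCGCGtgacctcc
Oprd1: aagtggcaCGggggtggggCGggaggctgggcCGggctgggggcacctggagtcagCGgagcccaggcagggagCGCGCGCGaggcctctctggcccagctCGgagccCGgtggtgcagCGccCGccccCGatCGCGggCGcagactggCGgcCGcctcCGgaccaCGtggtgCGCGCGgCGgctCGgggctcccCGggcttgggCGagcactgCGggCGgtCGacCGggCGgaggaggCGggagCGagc
Oprm1: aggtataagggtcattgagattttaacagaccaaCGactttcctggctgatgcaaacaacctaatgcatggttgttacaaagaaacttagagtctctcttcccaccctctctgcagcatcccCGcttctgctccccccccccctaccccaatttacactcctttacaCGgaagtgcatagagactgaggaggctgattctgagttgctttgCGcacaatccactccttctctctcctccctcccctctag
Oprl1: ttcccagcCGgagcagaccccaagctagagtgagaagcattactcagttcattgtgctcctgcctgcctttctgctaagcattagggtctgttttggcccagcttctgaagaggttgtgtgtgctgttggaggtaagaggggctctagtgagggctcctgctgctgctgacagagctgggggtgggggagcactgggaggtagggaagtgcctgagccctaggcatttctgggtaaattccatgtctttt
Cnr2: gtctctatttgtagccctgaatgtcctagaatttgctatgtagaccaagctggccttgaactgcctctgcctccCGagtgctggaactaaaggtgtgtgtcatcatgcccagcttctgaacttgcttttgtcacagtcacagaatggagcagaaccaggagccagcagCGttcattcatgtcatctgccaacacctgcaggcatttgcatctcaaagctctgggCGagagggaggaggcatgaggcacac
The Cnr1 stretch holds 36 CpG and is 79.2% G and C, and the Oprd1 stretch holds 34 CpG at 80.0%. Of the 21263 promoters compared, whose median was 10 CpG, 96.7% held fewer than Cnr1 and 95.5% fewer than Oprd1. The Oprm1 stretch holds 4 CpG, the Cnr2 stretch 3 and the Oprl1 stretch 1, so these promoters are CpG-poor. The GC box (GGGCGG on either strand), the letters that Sp1-type factors recognise, occurs 5 times in the Cnr1 stretch and 4 times in that of Oprd1, and 42.6% of all promoters hold at least 1. The letters CACGTG, an E-box, occur in the Oprd1 stretch and before the second Cnr1 start, and in 6.63% of promoters. TATAAA occurs before the first Oprl1 start and in 11.6% of promoters. No 250-base stretch of these genes holds the CRE letters TGACGTCA (1.92% of promoters) or the AP-1 letters TGANTCA (6.13%). These matches describe letters only.

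The starts of 5 receptor genes were open in every operation and carried no acetylation peak in any. Within 1 kb of an annotated start, Oprm1, Oprd1, Oprk1, Oprl1 and Cnr1 had an ATAC peak in all 4 lists, a state shared by 62.1% of all genes. An H3K9ac peak at a start was listed for Cnr2 alone, in the DCA list, against 61.9% of genes with one in at least 1 list. No receptor gene had an H3K27ac peak at its start in any list, against 57.1% of genes. An H3K27me3 peak lay at the start of the same 5 genes in at least 1 list, against 37.7% of genes. Open in all 4 ATAC lists with no acetylation peak described those 5 of 6 receptor genes and 5.83% of genes. With an H3K27me3 peak added it was again 5 of 6, against 5.16%. None of the H3K27me3 start peaks of the receptor genes passed a q of 0.05, and none was in the DCA list. Over all genes, H3K27me3 was at 88.5% of the open starts without acetylation and at 27.3% of those with it.

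**Figure D1:**
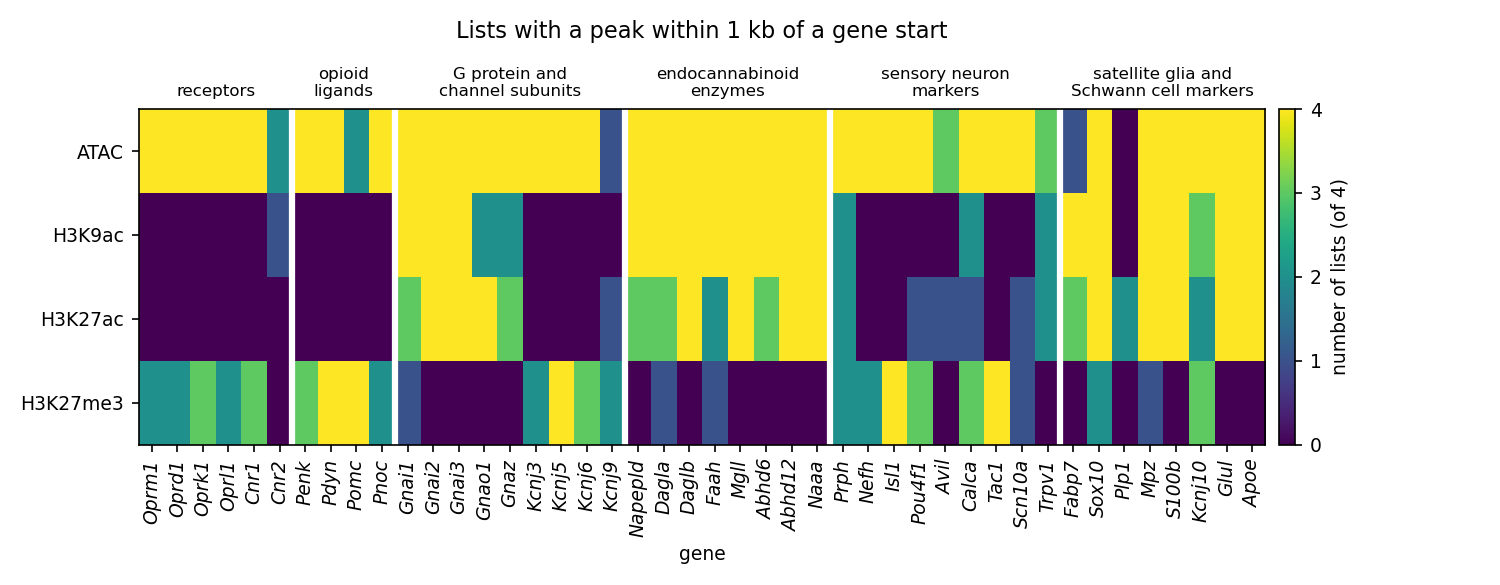
Number of the 4 lists of each assay (colour, 0 to 4; rows) with a peak within 1 kb of a start of each gene (columns), for the 6 receptor genes, 3 groups of pathway genes and 2 groups of cell type markers. The first 5 receptor genes are at 4 for ATAC and at 0 for both acetylation marks, as are Penk, Pdyn, Pnoc, Kcnj3, Kcnj5 and Kcnj6, while the 8 endocannabinoid enzymes have both.

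Promoters of 0 to 4 CpG were open in all 4 lists in 7.95% of cases and those of 20 or more in 94.0%. Oprd1 and Cnr1 are among the CpG-rich. Oprm1 and Oprl1 had CpG-poor promoters at each of their starts and an ATAC peak within 1 kb of a start in all 4 lists. That measure takes any start of a gene and is not like the shares above, which count single promoters. The Oprm1 stretch shown was itself overlapped by an ATAC peak in 3 lists (Sham, SNA and DCA). The Oprl1 stretch shown was overlapped in all 4 lists, and the stretches before its other starts in 2 lists each. The merged ATAC region of Oprl1 spanned its 3 annotated starts, at 181715016, 181715348 and 181715690 on chromosome 2. Of the single peaks in it, only that of SNA reached over all 3 starts, and the Sham peak covered none of them. Of the 3 Oprm1 starts, the pair at 6788570 and 6788576 on chromosome 10 had the ATAC peak in all 4 lists. The start at 6758593 had none in any list. Likewise the starts of Cnr1 at 33924264 and 33924644 on chromosome 4 lay under the peak in all 4 lists, and the one at 33926380 had none within 1 kb. Cnr2 had an ATAC peak near its first start in the SNA and Lam lists and none there in the Sham and DCA lists.

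The height of these ATAC peaks was recovered as a read pile-up at the peak's highest summit, with its exact Poisson 95% interval, which covers counting error only. The background is the pile-up that the authors' caller took as local noise. At the Cnr1 start the pile-up was 58 reads in Sham (interval 44.0 to 75.0, background 17.5). It was 82 in SNA (65.2 to 102, background 19.6), 62 in Lam (47.5 to 79.5, background 17.2) and 76 in DCA (59.9 to 95.1, background 20.1). Both injury lists lay above their own control, but the intervals of each pair overlapped, and the local background was higher in the injury lists too. As a fold over background the deposited values were 3.20 for Sham, 4.03 for SNA, 3.46 for Lam and 3.65 for DCA. The Cnr1 peak outranked between 94.3% and 96.1% of its list by −log10 p.

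At the Oprk1 start the pile-up was 39 reads in Sham, at the higher of 2 peaks there, 55 for SNA, 57 for Lam and 53 for DCA. The Sham interval, 27.7 to 53.3, overlapped those of SNA (41.4 to 71.6), Lam (43.2 to 73.9) and DCA (39.7 to 69.3). Oprk1 thus stood lower in Sham than in the other 3 lists, but within counting error. At the Oprm1 start it was 43 for Sham, 50 for SNA, 40 for Lam and 41 for DCA. At the Oprd1 start it was 39, 44, 38 and 39 in the same order. At Oprl1 it was 45, 48, 42 and 43. For these 3 genes SNA was the highest list in reads, and every interval overlapped every other of the same gene. The genome-wide background of the lists itself ran from 16.2 (Sham) through 17.2 (Lam) and 17.3 (SNA) to 18.4 (DCA). As a fold over local background, SNA and Sham were 2.79 and 2.56 at Oprm1 and 2.26 and 2.25 at Oprd1. At Oprl1 the fold was lower in SNA (2.12) than in Sham (2.34). In height Cnr1 came first and Oprk1 next in SNA, Lam and DCA, with overlapping intervals. In DCA the Cnr1 interval lay above those of Oprm1 (29.4 to 55.6), Oprd1 (27.7 to 53.3) and Oprl1 (31.1 to 57.9), whose order was not resolved.

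**Figure D2:**
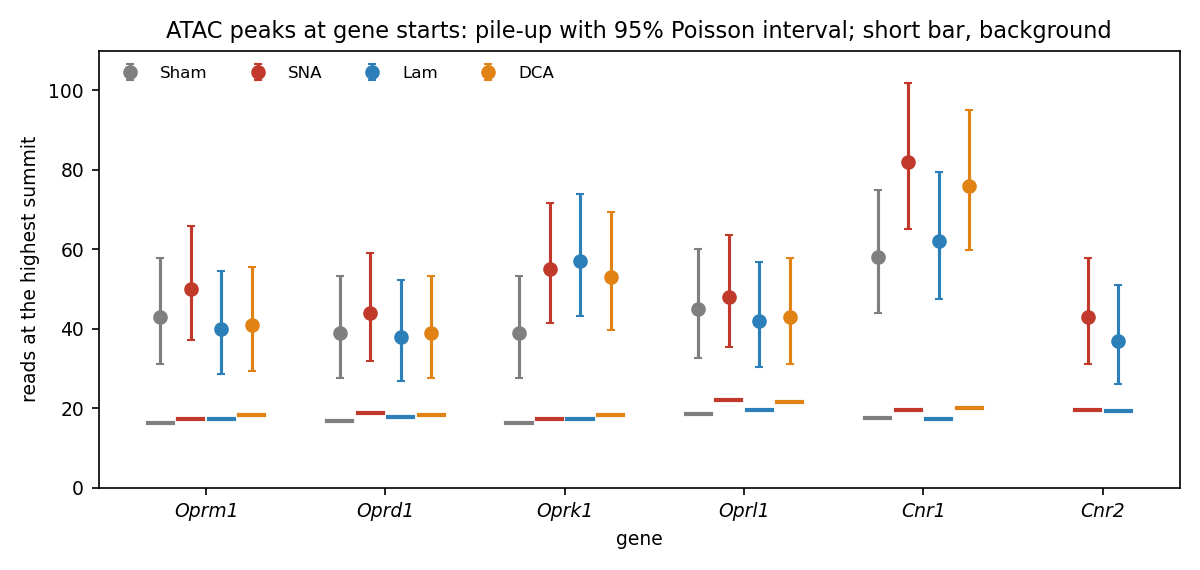
Read pile-up at the highest ATAC summit within 1 kb of a start (vertical axis, reads) for each gene and operation, with exact Poisson 95% intervals of counting error; short bars mark the local background. Cnr1 is highest, at 58 to 82 reads, Cnr2 has a point in SNA and Lam only, and the intervals of the 4 operations overlap within each gene.

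Most open sites of the receptor genes, starts included, were in 1 list only, at a share near that of all gene windows. Merging the 4 ATAC lists gave 79 regions in the 6 windows, of which 8 (10.1%, exact Clopper-Pearson interval 4.47 to 19) were in all 4 lists and 48 (60.8%) in 1 list. Over all gene windows 12.2% of regions were in all 4 lists and 56.7% in 1. Of the 8, 5 were the gene starts described above. The other 3 were chr4:132113036-132114325 within Oprd1, 30.8 kb downstream of its start and near its 3′ end, chr4:135888186-135889610, 6.3 kb upstream of Cnr2, and chr4:135920394-135921254, which is at the start of the neighbour Fuca1. In the region upstream of Cnr2 the Lam peak overlapped neither the Sham nor the SNA peak, and the wider DCA peak joined them. Oprm1 had 28 regions, 22 of them in 1 list and 1, its start, in all 4.

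Peak numbers per gene depend on its length, so genes are set side by side per 100 kb. Oprl1, the shortest, had the most ATAC peaks per 100 kb, at 19.2 (Sham), 19.2 (SNA), 23.1 (Lam) and 26.9 (DCA). Oprd1 had 14.7, 16.6, 14.7 and 12.9 in the same order. Oprm1, with 279.6 kb by far the longest, had the lowest value in Sham, Lam and DCA: 3.67, 3.67, 3.0 and 2.0. All gene windows merged held 8.14, 9.51, 8.82 and 8.87. Cnr1 (8.76, 2.19, 4.38 and 6.57) and Oprk1 (10.6, 7.96, 5.31 and 2.65) were above that level in Sham and under it in the other lists. Cnr2 had 11.1, 11.1, 20.0 and 17.8. A ganglion is a mixed tissue, and in a pooled bulk list fewer cells of a type and less signal per cell cannot be told apart.

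**Figure D3:**
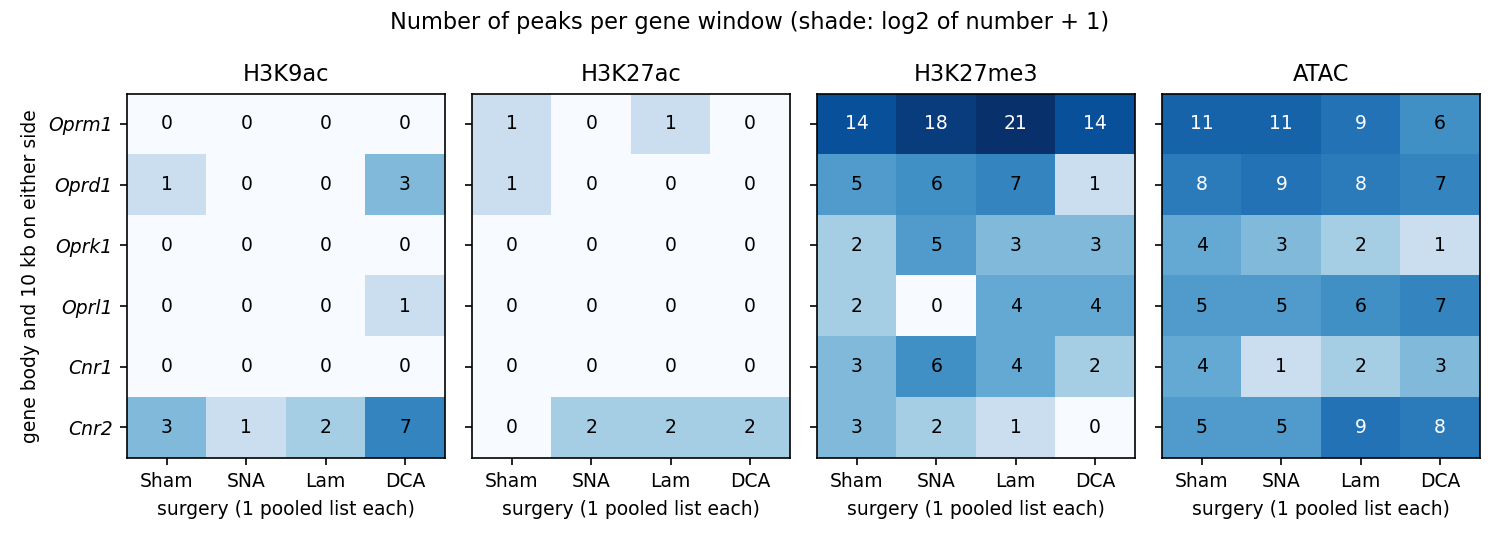
Number of peaks in the window of each receptor gene (rows) in each of the 16 lists (columns, 4 operations in each of 4 assays; shade on a log2 scale of number + 1). ATAC and H3K27me3 peaks were listed for every gene in at least 3 operations, and H3K9ac and H3K27ac cells are mostly 0 outside Cnr2.

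Oprm1 had no H3K9ac peak in any list and 2 H3K27ac peaks, 1 in Sham and 1 in Lam. Both lay at one place, chr10:7039664-7040122 in Sham, 251.3 kb from the last annotated start, beyond the 3′ end of Oprm1 and inside the neighbour Ipcef1. The Sham peak had a fold enrichment of 7.93 over background and the Lam peak 4.66. This H3K27ac site was in both control lists and in neither injury list, a pattern whose share over all genes was not computed. In ATAC the same site had a peak in the DCA list alone, at chr10:7039839-7040015 (40 reads). ATAC peaks in the window numbered 11 for Sham, 11 for SNA, 9 for Lam and 6 for DCA. Ipcef1 overlaps a large part of Oprm1, and without peaks in Ipcef1 or near it the numbers were 4, 7, 6 and 3. The strongest SNA peak beyond the start, at chr10:6832578-6832929 and 44.2 kb downstream, reached 47 reads. H3K27me3 peaks numbered 14 for Sham, 18 for SNA, 21 for Lam and 14 for DCA, and covered 17.4 kb, 19.5 kb, 17.7 kb and 10.1 kb. At the start pair H3K27me3 was listed in SNA and Lam. Of the 48 merged H3K27me3 regions, 2 were in all 4 lists, at 83.1 kb and 219.2 kb from the start. In the one at 83.1 kb the Lam peak overlapped that of SNA but not those of Sham and DCA.

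**Figure D4:**
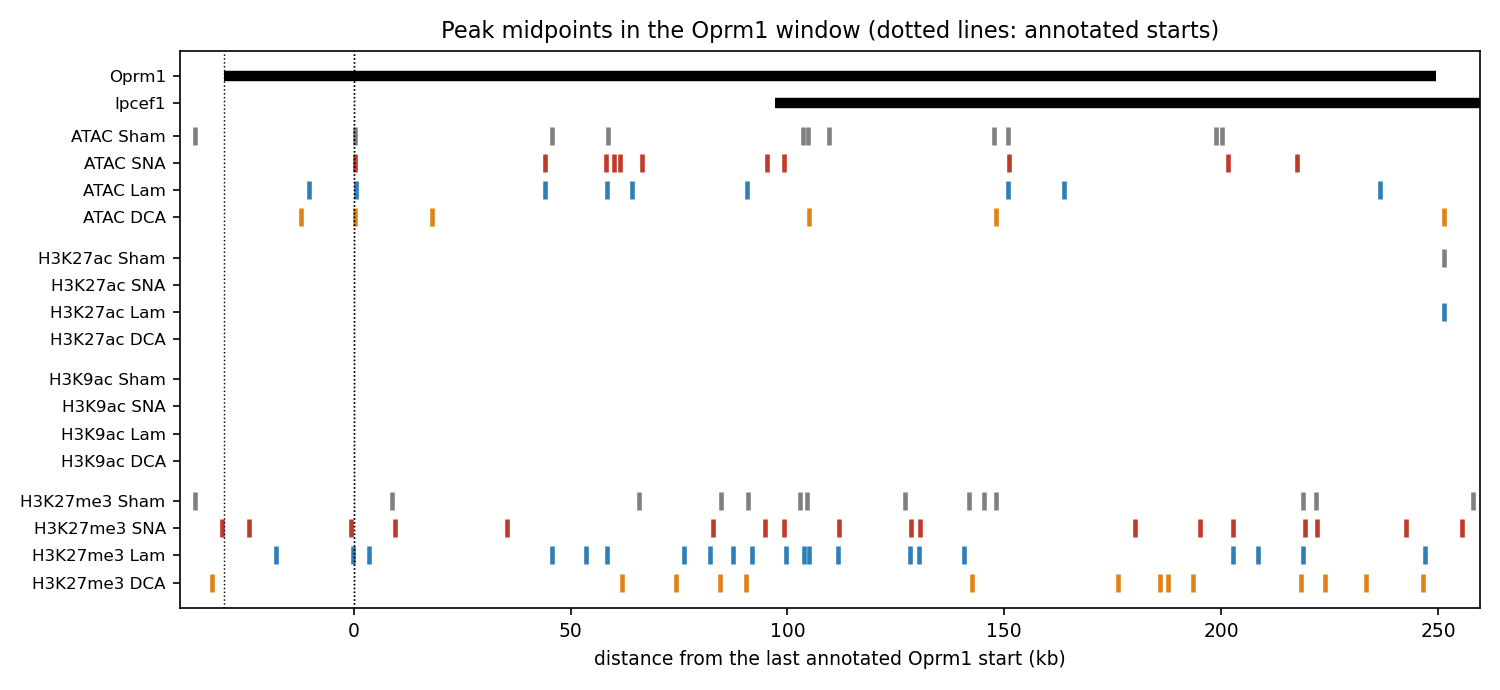
Midpoints of all peaks in the Oprm1 window (horizontal axis, kb from the last annotated start) by assay and operation (rows), with the bodies of Oprm1 and Ipcef1 as black bars and the annotated starts as dotted lines. ATAC peaks line up in all 4 lists at 0 kb, the H3K27ac peaks of Sham and Lam lie at 251.3 kb, and the H3K9ac rows are empty.

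Oprd1 had H3K9ac peaks in Sham (1) and DCA (3), none of them at its start. The place at chr4:132113450-132114095 in DCA, listed also in Sham, is the one that was open in all 4 ATAC lists near the 3′ end. Its fold was 3.08 in Sham and 2.91 in DCA. ATAC peaks numbered 8, 9, 8 and 7 in Sham, SNA, Lam and DCA, but of its 18 merged ATAC regions 11 were in 1 list and 2 in all 4. H3K27me3 peaks numbered 5, 6, 7 and 1, and they covered 4.0 kb, 9.9 kb, 17.2 kb and 0.6 kb. In Lam that was 31.6% of the window, and in DCA 1.18%. The start lay under a broad H3K27me3 peak in SNA and in Lam, of 5783 and 5734 bases.

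No acetylation peak lay anywhere in the windows of Oprk1 and Cnr1 in any list. Such windows made up 25.9% of all genes, so 2 of 6 is close to that share. At Oprk1, ATAC peaks numbered 4, 3, 2 and 1 in Sham, SNA, Lam and DCA, and H3K27me3 peaks 2, 5, 3 and 3. H3K27me3 was listed at its start in Sham, SNA and Lam. Both ends of Oprk1 counted as starts, and every start peak was at 5588450 on chromosome 1. Oprl1 had 1 H3K9ac peak, in DCA, 12.3 kb downstream of its last start. Its ATAC peaks numbered 5, 5, 6 and 7 and its H3K27me3 peaks 2, 0, 4 and 4. H3K27me3 peaks within 1 kb of an Oprl1 start were in Sham and Lam, at separate places that did not overlap.

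Cnr1 had the highest ATAC summit of the opioid and cannabinoid receptor starts and few other open sites, with 4, 1, 2 and 3 ATAC peaks. Its start also lay in the widest H3K27me3 peak of the 6 genes, 9199 bases in Sham. H3K27me3 covered 10.8 kb for Sham, 8.5 kb for SNA, 4.3 kb for Lam and 5.0 kb for DCA. In number that was 3, 6, 4 and 2, so the peak count and the covered length ordered Sham and SNA differently, and likewise Lam and DCA. The DCA peaks were off the start, the strongest of them 5.8 kb upstream.

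Cnr2 was the one receptor gene whose start was not open in all 4 lists. Its strongest ATAC peaks, at 71, 67, 70 and 80 reads in Sham, SNA, Lam and DCA, were at the start of Fuca1, a lysosomal fucosidase gene that begins 507 bases beyond the end of Cnr2. The H3K9ac region in all 4 lists, chr4:135920307-135922158, and all 6 H3K27ac peaks of the window also belonged to Fuca1. H3K9ac peaks that touched neither Fuca1 nor its start numbered 0 in Sham, SNA and Lam and 4 in DCA. Of these 4, 2 lay near the first Cnr2 start and 1 near the second, at 135911680. The highest was chr4:135896093-135896563, 3.94-fold over background, and it outranked 72.2% of the DCA list. At the same place ATAC peaks were listed in SNA (43 reads) and Lam (37 reads) and not in DCA. Macrophage markers, which could mark cells that carry Cnr2, had H3K9ac at a start in 1 of 8 genes in Sham, SNA and Lam and in 2 of 8 in DCA. Their H3K9ac peaks in whole windows numbered 12 in Sham, 20 in SNA, 15 for Lam and 20 for DCA. Of the 4 T and B cell markers none had an H3K9ac start peak in any list. Their part in the Cnr2 values was not tested.

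The injuries were set against their own controls, and Lam against Sham gave the gap between operations without an axotomy. A gene was called when its window held at least 2-fold more or fewer peaks in one list and the numbers differed by at least 2. In H3K9ac, Cnr2 was lower in SNA than in Sham (1 against 3, 1.38% of genes called lower), and all 4 of those peaks overlapped Fuca1. The SNA peak, at 5.75-fold over background, overlapped 2 of the Sham peaks, at 3.17-fold and 4.61-fold. The lower number there thus came in part from a site listed as 2 peaks in Sham and 1 in SNA. Oprd1 (3 against 0) and Cnr2 (7 against 2) were higher in DCA than in Lam, as were 22.8% of genes. In H3K27ac, Cnr2 was higher in SNA than in Sham (2 against 0, 21.3% of genes), and also in Lam than in Sham (2 against 0, 16%), with all those peaks in Fuca1. In H3K27me3, Oprk1 (5 against 2) and Cnr1 (6 against 3) were higher in SNA than in Sham (11.6% of genes), and Oprl1 was lower (0 against 2, 13.6%). Oprd1 (1 against 7) and Cnr1 (2 against 4) were lower in DCA than in Lam, as were 38.1% of genes, though the covered length at Cnr1 was not lower. Between the controls, Oprl1 was higher in Lam (4 against 2, 21.5%) and Cnr2 lower (1 against 3, 6.40%). In ATAC, Cnr1 was lower in SNA than in Sham (1 against 4, 3.70%), while Oprk1 (2 against 4) and Cnr1 (2 against 4) were lower in Lam than in Sham (5.84%). Of the 4 Oprk1 peaks in Sham, 2 lay at the start, at 2.09-fold and 2.33-fold over background. The single Lam peak there overlapped both and had a higher fold, 3.18. Cnr1 thus had fewer ATAC peaks than in Sham in Lam as well, a list without an axotomy.

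Summed over the 6 genes, the comparison of operations gave 1 share whose interval left out 50%. H3K9ac peaks numbered 11 in DCA and 2 in Lam, so 84.6% of them were in the DCA list (exact Clopper-Pearson 95% interval 54.6 to 98.1). Summed over all genes the DCA share was 62.8%, inside that interval. With both lists cut to the same number of peaks the genes had 5 against 2, and the interval, 29.0 to 96.3, then took in 50%. Of the 11 merged H3K9ac regions of the receptor genes, 8 were in the DCA list alone (72.7%), against 28.0% of the H3K9ac regions of all gene windows. These regions are few and clustered: 7 of the 11 lay in the Cnr2 window, 5 of those in DCA alone. Of these 5, the one at chr4:135922973-135923406 lay within Fuca1. The DCA list of H3K9ac was the largest of the 4, with 89647 peaks against 50667 in Lam. For H3K9ac in SNA against Sham there were 1 and 4 peaks (20.0%, interval 0.505 to 71.6, all genes 58.6%). H3K27me3 peaks numbered 24 in DCA and 40 in Lam (37.5%, 25.7 to 50.5, all genes 31.6%), and 24 and 22 with lists of equal size (52.2%). They numbered 37 in SNA and 29 in Sham (56.1%, 43.3 to 68.3, all genes 51.2%). ATAC peaks numbered 34 in SNA and 37 in Sham (47.9%, 35.9 to 60.1, all genes 53.8%), and 32 in DCA and 36 in Lam (47.1%, 34.8 to 59.6, all genes 49.9%). H3K27ac numbers were too small to place a share, with 2 peaks each for Sham, SNA and DCA and 3 for Lam. In 0 of the 12 comparisons did the interval leave out the share of all genes.

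**Figure D5:**
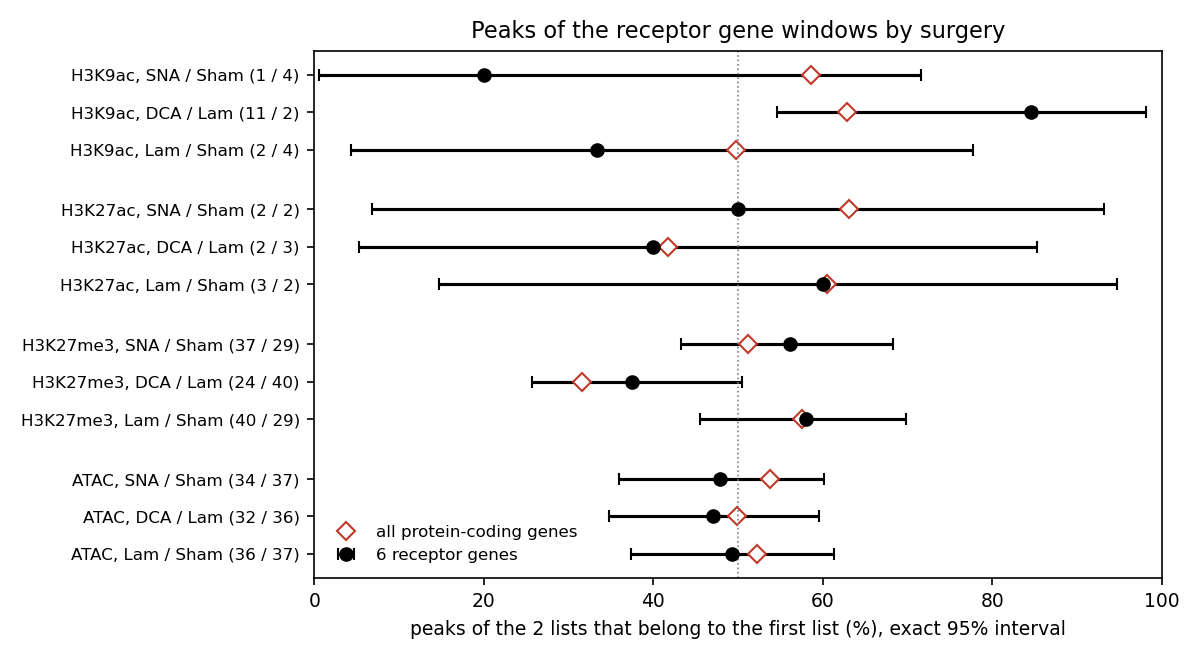
Percent of the receptor gene peaks of 2 lists that belong to the first list (points, with exact Clopper-Pearson 95% intervals of counting error) for each assay and pair of operations; diamonds show the share summed over all genes, and numbers in brackets are peaks of the first and second list. H3K9ac in DCA against Lam, at 84.6%, is the interval that lies above 50%, and every interval holds its diamond.

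The H3K27me3 peaks of these genes were weak. Their fold enrichment had a median of 1.15 and reached at most 1.99, and 0 of the 130 passed a q of 0.05 (highest −log10 q 0.222). Such peaks were rare in the whole lists too, with 1613 of 122953 in Sham and 43 of 90011 in DCA. H3K27me3 covered 8.64% of the 6 windows for Sham, 8.63% for SNA, 8.47% for Lam and 3.74% for DCA. All gene windows were covered to 6.91%, 6.06%, 7.91% and 3.05%, so cover was lowest in DCA over all genes too. For ATAC, 115 of 139 peaks of the receptor genes passed that q, for H3K9ac 15 of 18 and for H3K27ac 9 of 9. Of the receptor genes' ATAC peaks, 2.78% to 12.5% overlapped an H3K9ac peak of the same operation, against 16.3% to 26.0% in all gene windows. The overlap with H3K27me3 was 24.3%, 20.6%, 33.3% and 6.25% in Sham, SNA, Lam and DCA, against 14.2%, 10.2%, 20.3% and 3.89%.

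The pathway genes around the receptors fell into groups with different start chromatin. The 4 opioid ligand precursor genes Penk, Pdyn, Pomc and Pnoc, which encode enkephalin, dynorphin, beta-endorphin and nociceptin, had no acetylation peak at a start in any list. Of these, Penk, Pdyn and Pnoc were open in all 4, as the receptors were, and all 4 genes had H3K27me3 at a start in at least 1 list. Over the 16 lists, presence of a start peak was identical in Oprm1, Oprd1 and Pnoc, and Oprm1 shared its pattern with 92 genes in all. It was likewise identical in Oprk1, Cnr1, Penk and Kcnj6, and Cnr1 shared its pattern with 311 genes. Oprl1 shared its own with 142 genes, Kcnj3 among them, and Cnr2 with 2. Of the 9 genes for Gi/o alpha subunits and inward rectifier channel subunits, 8 were open in all 4 lists. The channel genes Kcnj3, Kcnj5 and Kcnj6 were open without acetylation, whereas Gnai1, Gnai2, Gnai3, Gnao1 and Gnaz were open with it. All 8 genes that make or break down endocannabinoids (Napepld, Dagla, Daglb, Faah, Mgll, Abhd6, Abhd12 and Naaa) had both an open start in all 4 lists and acetylation in at least 1. So did all 9 genes of receptor desensitisation and regulation (arrestins, G protein receptor kinases, Rgs4, Rgs9 and Cnrip1). So did Rest, Mbd1 and Ehmt2, repressors of transcription that have been studied at Oprm1 after nerve injury. Grk3 and Rgs4 had that acetylation in 1 list each, and H3K27me3 at a start in 3 lists each. Over all genes, 56.3% were open in all 4 lists with acetylation at a start in at least 1. Gpr55 and Gpr18, receptors related to the cannabinoid system, were not open in all 4 lists.

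The tissue label was checked on cell type markers. Of 9 sensory neuron markers, 7 were open at the start in all 4 lists and 6 had an acetylation peak there in at least 1 list. Nefh, Isl1 and Tac1 were open without one and had H3K27me3 at a start in 2, 4 and 4 lists, so 5 of the receptor genes share this state with them. Of the 8 markers of satellite glia and Schwann cells, the other main cells of the ganglion, 6 were open in all 4 lists and all 8 had acetylation at a start in at least 1 list. Of 8 macrophage markers, 4 were open in all 4 lists and 2 had acetylation. Of the 4 T and B cell markers, 0 were open in all 4. Over all genes, 62.1% were open in all 4 lists and 63.1% had an acetylation peak at a start in at least 1 list. H3K27me3 lay at a start in at least 1 list for 7 of 9 neuron markers and 3 of 8 glial markers. The same held for 6 of 8 macrophage markers, 2 of 4 T and B cell markers and 37.7% of all genes. By list, H3K9ac was at 0 of the 9 neuron starts in Sham, 2 in SNA, 1 for Lam and 3 for DCA. The part of cell composition in the receptor values was not tested.

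After SNA, 3 pathway genes were called higher than in Sham in both acetylation marks, where the H3K9ac and H3K27ac lists of SNA (74652 and 75824 peaks) were larger than those of Sham (50332 and 43803). The share of all genes called in 2 assays at once is not given, only the share in each assay. Napepld, which makes anandamide and related lipids, had 15 H3K9ac peaks in SNA against 4 in Sham and 14 H3K27ac peaks against 5. Abhd12, a lipase of 2-arachidonoylglycerol, had 27 against 12 and 21 against 6. Gnai1, an inhibitory G protein subunit, had 4 against 2 and 8 against 1. In H3K27ac all 3 were also higher in Lam than in Sham, with 14 against 5 for Napepld, 14 against 6 for Abhd12 and 3 against 1 for Gnai1. In H3K9ac all 3 were also called higher in DCA than in Lam. The numbers were 12 against 6 for Napepld, 24 against 12 for Abhd12 and 6 against 3 for Gnai1. In H3K9ac 12.8% of all genes were called higher in SNA than in Sham, against 20.0% of the pathway genes. For DCA against Lam the shares were 22.8% and 34.3%. Napepld was lower in SNA in H3K27me3 (0 against 2, 13.6% of all genes called) and ATAC (3 against 6, 3.70%). Gnai3 was higher in H3K27ac (5 against 1, 21.3%) and H3K27me3 (3 against 1, 11.6%). Over the 35 pathway genes, H3K9ac peaks numbered 175 in Sham, 287 with SNA, 175 with Lam and 303 with DCA. H3K27ac peaks numbered 152, 255, 215 and 149. In H3K27ac, 28.6% of the pathway genes were called higher in SNA than in Sham, against the 21.3% of all genes given above. Relative to Lam, 3 genes were lower in DCA in both H3K27ac (13.3% of all genes called) and H3K27me3 (38.1%). Gnai1 had 0 against 3 and 1 against 4, Gpr55 had 0 against 2 and 0 against 4, and Ehmt2, the methyltransferase G9a, had 3 against 8 and 0 against 2. Between the controls Kcnj9 was higher in Lam than in Sham in H3K9ac (4 against 2, 6.97% of all genes called), H3K27me3 (4 against 2, 21.5%) and ATAC (5 against 1, 8.34%). Also higher in Lam were Gnai3 in H3K9ac (4 against 2) and ATAC (8 against 3), Mbd1 in H3K27me3 (2 against 0) and ATAC (7 against 3), and Abhd6 in H3K27ac (12 against 5) and H3K27me3 (7 against 1). The largest ATAC number of a pathway gene was that of Kcnj6, with 36, 40, 40 and 41 in the order Sham, SNA, Lam, DCA. Mgll, which breaks down 2-arachidonoylglycerol, followed with 23, 21, 30 and 24. Of the remaining groups, Grk3 had 19, 27, 22 and 22, Gpr55 8, 9, 9 and 8, Ehmt2 6, 9, 7 and 6, and Pnoc 7, 6, 8 and 5.

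Likeness was measured as the Euclidean distance of log2(number + 1) over the 16 lists, among genes whose window length was within 2-fold. The closest to Oprm1 were Trhde at 1.36, Npsr1 at 1.41 and Far2 at 1.51, of 1583 genes with a median distance of 7.70. The closest to Cnr1 were Akr1c19 at 0.92 and Ccl9 and Ccdc177, both at 0.98, of 15103 genes. For Oprk1 they included Serpinb10 (1.05) and Foxd4 (1.06). For Oprd1 they were Krt79 (1.55), Mtarc1 (1.72) and Asb10 (1.79). For Oprl1 they were Lbx1 (1.77), Hmga1b (1.77) and Umod (1.78). Cnr2 had the least close neighbours, Kdelr1 (1.86), Calhm1 (1.88) and Zfp746 (1.89). These distances describe peak numbers in the same 16 pooled lists.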

How the data were processed

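H3K9ac, H3K27ac and H3K27me3 ChIP-seq and ATAC-seq gave 60 samples by the labels: 24 ChIP, 24 input and 12 ATAC. The labels' design text says that each deposited file pools the replicates of a condition, and whether these came from separate cohorts was not given. The build is mm10, per the submitters' processing notes. The aligner, peak caller and settings are not given in the sources used here. The deposited fold is the ratio of a peak's signal to the background set by the authors' caller. The deposited −log10 p and −log10 q are those of that caller. The deposited integer score was not used. These values describe peaks within 1 list. Read depth is unknown.

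ATAC intervals repeated for several summits were kept once, with their strongest summit. Peaks were counted per gene when they overlapped its window by at least 1 bp, with genes and starts from RefSeq GRCm38.p6. Starts with strand were found for 79.9% of genes, and both ends were used for the rest. An ATAC pile-up k over a background b was solved from fold = (k + 1)/(b + 1) and p as the upper Poisson tail. A whole k matched the deposited −log10 p within 0.003 for 100% of 2000 peaks drawn per list. Shares have exact Clopper-Pearson 95% intervals and pile-ups exact Poisson ones, which cover counting error only and treat reads and peaks as independent. Counting and pile-up code were tested on simulated data. Motifs were searched on both strands of 250 bases before each start.

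Named genes were the 6 receptors, pathway genes called the same way in at least 2 assays of a comparison, the pathway gene with the most ATAC peaks in each group, and the 3 genes most like each receptor. A sensory neuron marker and a gene most like Oprk1 are not reported here. The members, lists and rules were chosen with earlier results of these data known. Alternatives were gene bodies only, 50 kb on either side, q at most 0.05 or 0.01, equal list sizes, without Oprm1, peaks by midpoint, each ATAC summit counted, peaks overlapping an ATAC peak, 5 kb around a start, and a reciprocal overlap of 50%. One more, without peaks of other genes, was added after seeing the data. Python 3.11.15, pandas 2.3.3, numpy 2.4.6, SciPy 1.17.1 and matplotlib 3.10.9 were used.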

Additional observations from a re-analysis of the deposited data

Results flagged for a closer look

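In H3K9ac the summed peak number of the 6 receptor genes moved in opposite directions after the 2 injuries: SNA minus Sham was -3 and DCA minus Lam was 9. Within 50 kb on either side the numbers were 30 in SNA and 28 in Sham, and at a q of 0.05 they were 1 and 1. With equal list sizes they were 1 and 4, and without peaks of other genes 0 and 1, so SNA stayed lower there. Of the 9 alternatives for this share, 1 crossed 50%. The direction in SNA thus depended on the setting and rested on few peaks. At Cnr2 the peaks numbered 3 in Sham and 1 in SNA, and 2 in Lam and 7 in DCA. The SNA peak, at 5.75-fold, overlapped 2 of those Sham peaks, at 3.17-fold and 4.61-fold, so the number there depended on how a site was split.

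In H3K27me3 the summed peak number also moved in opposite directions: SNA minus Sham was 8 and DCA minus Lam was -16. With equal list sizes the numbers were 23 in SNA and 20 in Sham, and 24 in DCA and 22 in Lam, so that the opposite direction was lost. Between the control lists, Lam held 40 and Sham 29. Each list pools its replicates, so the difference between the injuries was not tested in either mark.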

How the results depend on the processing

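Of 112 alternative values, 99 stayed within the interval of the value reported, or within 1.5 times a count, and 13 did not. Among the 96 alternative shares, 17 crossed 50%. With gene bodies only, the H3K9ac share was 0.0% for SNA against Sham, 100.0% for DCA against Lam and 0.0% for Lam against Sham. Without peaks of other genes, an alternative chosen after seeing the data, the same 3 shares were 0.0%, 100.0% and 0.0%, and the H3K27ac share was 0.0% for SNA against Sham and 0.0% for Lam against Sham. For peaks that overlap an ATAC peak, the H3K27ac share of SNA against Sham was 100.0% and the H3K27me3 share of DCA against Lam 15.4%. With equal list sizes, the latter was 52.2%. The H3K9ac bodies held 6 peaks in DCA and 0 in Lam, and the H3K27me3 lists of equal size 24 and 22. At a q of 0.05 the pairs of a receptor gene and a list with an H3K27me3 start peak fell from 12 to 0, and the H3K27me3 shares had no peaks to give at either q. With a reciprocal overlap of 50% the share of Sham H3K9ac peaks found in all lists was 0.0%, in place of 25%.

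The H3K9ac share of DCA against Lam ranged from 67.1% to 100.0% over its 9 alternatives. The pairs of a receptor gene and a list with an ATAC start peak numbered 22, also at the q of 0.05 and with equal list sizes. No paired analysis was possible because each list pools all replicates of a condition, and for the same reason no replicate could be left out. Depth is unknown, so a missing peak cannot be told apart from one under the caller's threshold.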
